A study of Rattus norvegicus with 8 samples.

Results

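Syndecans, glypicans and perlecan are the core proteins that carry heparan sulfate in the vessel wall, and 9 of their genes (Sdc1, Sdc2, Sdc3, Sdc4, Gpc1, Gpc3, Gpc4, Gpc6 and Hspg2) were looked up by name in a count table of 37209 genes. Of these, 7 had a row, the 4 syndecans and Gpc1, Gpc3 and Gpc4, and all 7 passed the filter on low counts. Gpc6 and Hspg2, the gene of perlecan, matched no row under their current or older symbols and are not analysed here. Its columns are 4 vein grafts and 4 control jugular veins. All came from Sprague Dawley (SD) rats, which are outbred, and were taken 1 week after surgery, and no genetic change or drug is named for either group. In the operation the left common carotid artery is cut and its ends are turned over cuffs, so that an interposed vein is exposed to arterial flow. As control, the animal's own jugular vein of the other side was taken, and neither sex nor age is given in the labels. The comparison shows which transcripts differ between a grafted vein in arterial flow and a vein left in place. The grafting itself and the arterial flow cannot be told apart.

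Syndecans span the cell membrane, glypicans are tied to its outer face by a lipid anchor, and perlecan is secreted into basement membranes. Their heparan sulfate chains are built in the Golgi, sulfated in patches, and trimmed outside the cell. Through these patches they hold growth factors, chemokines and antithrombin at the cell surface and in the matrix. In vessels such chains line the endothelium and surround smooth muscle cells.

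Levels are given as CPM, counts scaled to library size with TMM factors, which correct for differences in library composition. CPM is not per transcript length, so levels of different genes are not compared with each other. Total counts ran from 10533451 to 16061189 in grafts and from 5981520 to 14267490 in controls, so 3 counts stood for 0.182 to 0.24 CPM in grafts and 0.225 to 0.56 CPM in controls. Marker lists differed between the groups: 10 of 10 macrophage genes rose, and 10 of 10 contractile smooth muscle, 9 of 10 adipocyte, 5 of 10 endothelial, 4 of 9 fibroblast and 4 of 8 Schwann cell genes fell. Their summed levels in grafts and controls were 1190 to 1870 against 225 to 330 CPM for macrophages and 2000 to 3860 against 14600 to 24200 CPM for smooth muscle. For adipocytes they were 369 to 781 CPM in grafts against 975, 1410, 2940 and 4030 CPM in controls 1 to 4, and for Schwann cells 140 to 471 CPM in grafts against 273, 379, 3310 and 3090 CPM in controls 1 to 4. Controls 3 and 4 thus stood apart from controls 1 and 2. Brain markers were sparse although the extraction text names prefrontal cortex: 9 neuron and astrocyte genes summed to 13.5 to 52.8 CPM in grafts and 7.04 to 13.8 CPM in controls, and Gad2 had no counts in either group.

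**Figure D1:**
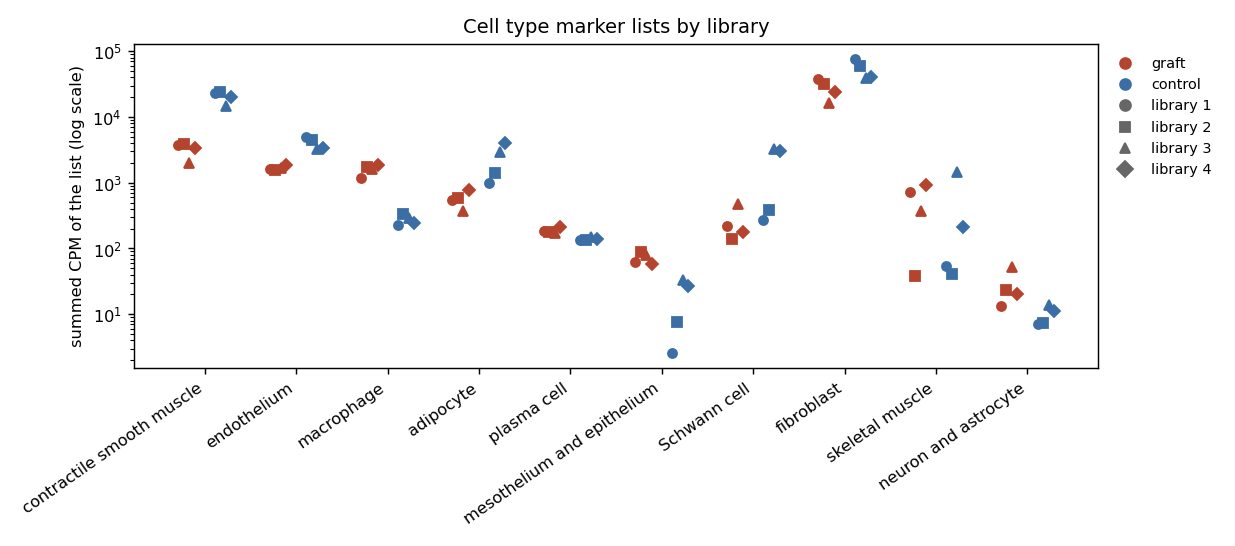
Summed CPM of each cell type marker list (log axis) in the 4 graft libraries (red, left of each pair) and 4 control libraries (blue). Macrophage sums were higher in every graft than in any control and smooth muscle sums lower, while the Schwann cell sums of controls 3 and 4 (3310 and 3090 CPM) lay above those of all other libraries.

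Among the 7 genes, Sdc2, Sdc3 and Gpc1 rose in grafts, Gpc3 fell, and Sdc1, Sdc4 and Gpc4 did not pass the test. The test was edgeR's quasi-likelihood test with Benjamini-Hochberg adjustment over all genes tested, called at an adjusted p under 0.05. By the same rule 42.3% of 15464 genes were called, 21.0% rose and 21.3% fell, and with 7 genes, 4 called is not set apart from that share. For 3 of the 7, Sdc2, Gpc1 and Gpc3, no graft library overlapped the controls, which held for 40.6% of all genes. A positive log2 fold change means a higher level in grafts. In whole vessels, fewer cells of a type and less RNA per cell cannot be told apart.

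**Figure D2:**
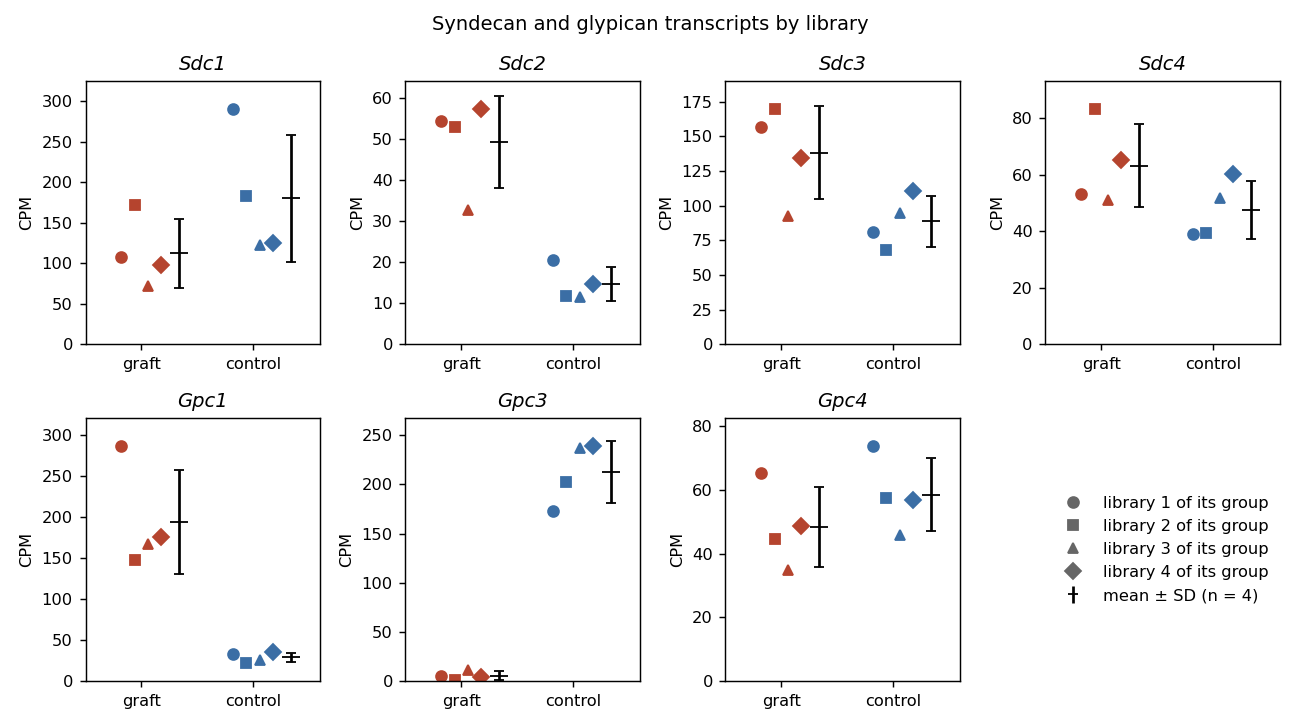
Level in CPM (linear axis from 0) of the 4 syndecans and 3 glypicans in each graft (red, left) and control (blue, right) library, with the mean and SD of 4 libraries in black. Sdc2 and Gpc1 lay higher in every graft than in any control, Gpc3 lay lower in every graft, and the other 4 genes overlapped.

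The largest change was the fall of Gpc3, a glypican that restrains hedgehog signalling in mice and whose loss causes an overgrowth syndrome in humans. Gpc3 stood at 4.55, 1.13, 11.4 and 3.85 CPM in grafts 1 to 4, against 173, 202, 237 and 239 CPM in controls 1 to 4. These are 75, 15, 143 and 60 counts in grafts and 2307, 2033, 2827 and 1281 counts in controls. All grafts were far below all controls, and graft 3 was the highest graft. Gpc3 averaged 5.24 ± 4.39 CPM in grafts and 213 ± 31.4 CPM in controls (SD, n = 4 each), so the mean level was 40.6-fold higher in controls. The log2 fold change was -5.35 ± 0.55 (SE; adjusted p = 9.45e-05 by edgeR), with a 95% interval from -6.59 to -4.12. Gpc3 followed the order of the adipocyte sums among controls, lowest in control 1 and highest in control 4. Among grafts it did not, as graft 3 held the lowest adipocyte sum (369 CPM) and the most Gpc3. There it followed the order of the Schwann cell sums, which were 222, 140, 471 and 175 CPM in grafts 1 to 4. With controls 3 and 4 left out the fold change was -5.17 (adjusted p = 0.00113 by edgeR). The part of the lower smooth muscle, adipocyte, fibroblast and Schwann cell markers in the fall of Gpc3 was not tested.

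Gpc1, a co-receptor for fibroblast and vascular endothelial growth factors, moved the other way. Gpc1 stood at 287, 147, 166 and 175 CPM in grafts 1 to 4, against 32.3, 22.4, 25.3 and 34.9 CPM in controls 1 to 4. Every graft exceeded every control, and graft 1 was the highest graft. The means were 194 ± 62.9 CPM in grafts and 28.7 ± 5.85 CPM in controls (SD, n = 4 each), a 6.75-fold higher level in grafts. The log2 fold change was 2.76 ± 0.24 (SE; adjusted p = 4.41e-05 by edgeR). Over 17 alternative fits it ran from 2.52 to 2.98, and that of Gpc3 from -6.02 to -5.02, with both called in all 17. The summed macrophage markers, which also rose, were lowest in graft 1, the graft with the highest Gpc1. The part of macrophages in the rise was not tested.

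Gpc4, a glypican that binds Wnt and bone morphogenetic proteins, overlapped between the groups. It stood at 65.2, 44.5, 34.9 and 48.7 CPM in grafts 1 to 4, against 73.8, 57.6, 45.8 and 56.9 CPM in controls 1 to 4. Grafts 2 and 3 lay below all controls, while graft 1 exceeded controls 2, 3 and 4. Its log2 fold change was -0.28 ± 0.21 (SE; adjusted p = 0.309 by edgeR), with a 95% interval from -0.74 to 0.19 that holds neither the fold change of Gpc3 nor that of Gpc1. Gpc2, a glypican of developing nerve that was not among the 9 genes and is named after its values were seen, was rare in both groups. It stood at 3.88, 3.83, 7.76 and 3.79 CPM in grafts 1 to 4 and 1.72, 0.697, 1.42 and 1.31 CPM in controls 1 to 4 (log2 fold change 1.88 ± 0.38, SE; adjusted p = 0.00354 by edgeR).

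Gpc3 and Gpc4 lie near each other on the X chromosome, with 4 annotated genes between them in RefSeq's GRCr8 annotation, yet their log2 fold changes were -5.35 and -0.28. Their promoters are shown because this pair of neighbours differed so widely in response. Each sequence runs 5′ to 3′ on the gene's own strand from 250 bases before to 50 bases after the transcript start used in the RefSeq table (GRCr8), and capitals mark the GC box, GGGCGG on either strand.
Gpc3, chrX:137157549-137157848, minus strand: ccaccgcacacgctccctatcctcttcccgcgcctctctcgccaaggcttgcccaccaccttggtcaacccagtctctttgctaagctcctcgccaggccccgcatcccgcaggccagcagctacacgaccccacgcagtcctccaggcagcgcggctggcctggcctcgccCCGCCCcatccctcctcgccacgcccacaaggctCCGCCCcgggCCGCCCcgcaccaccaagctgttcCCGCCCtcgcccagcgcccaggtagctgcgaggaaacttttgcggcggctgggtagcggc
Gpc4, chrX:136676008-136676307, minus strand: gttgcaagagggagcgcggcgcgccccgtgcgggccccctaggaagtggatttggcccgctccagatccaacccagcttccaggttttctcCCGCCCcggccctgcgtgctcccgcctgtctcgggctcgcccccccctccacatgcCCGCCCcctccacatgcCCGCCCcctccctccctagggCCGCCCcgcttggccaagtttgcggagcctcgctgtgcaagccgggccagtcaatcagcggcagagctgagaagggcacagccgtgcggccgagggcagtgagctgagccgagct
Both windows were rich in G and C, 71.0% in Gpc3 and 71.3% in Gpc4. They held 27 and 25 CG dinucleotides, where the median over the promoters of 27457 genes (1 per gene, same length) was 7 (quartiles 3 and 20). The GC box occurred 4 times in each without overlap, and 34.9% of all promoters held at least 1. Neither window held the TATA box, TATAAA on either strand, which 14.3% of all promoters held. The AP-1 site, searched as TGACTCA on both strands, was in neither window and in 4.5% of all promoters. Of the 9 genes, 6 had a promoter in the RefSeq table, and Sdc2, Gpc1 and Gpc6 had none.

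Among the syndecans, Sdc2 showed the clearest rise. Sdc2 is the syndecan of fibroblasts and other mesenchymal cells. It stood at 54.4, 52.8, 32.6 and 57.2 CPM in grafts 1 to 4, against 20.6, 11.9, 11.5 and 14.6 CPM in controls 1 to 4. The lowest graft, graft 3, was above the highest control, control 1. Means were 49.3 ± 11.2 CPM in grafts and 14.6 ± 4.2 CPM in controls (SD, n = 4 each), 3.36-fold higher in grafts. The log2 fold change was 1.75 ± 0.24 (SE; adjusted p = 0.000456 by edgeR), and it was called in all 17 alternative fits with a range from 1.6 to 1.97. Of 9 fibroblast markers tested, 4 fell, 4 did not pass and 1, the matrix proteoglycan gene Lum, rose. Their sum ran from 16300 to 38500 CPM in grafts against 38900 to 77100 CPM in controls. Most of that sum was Col1a1, at 13400 to 32000 CPM in grafts against 33600 to 69700 CPM in controls. The part of fibroblasts in the rise of Sdc2 was not tested.

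Sdc3, the syndecan most abundant in the nervous system, rose by less. It stood at 156, 169, 92.4 and 134.5 CPM in grafts 1 to 4, against 81.2, 67.9, 94.5 and 111 CPM in controls 1 to 4. Graft 3 lay below controls 3 and 4, so the groups overlapped. The log2 fold change was 0.64 ± 0.21 (SE; adjusted p = 0.0328 by edgeR). The call was lost without graft 1, 2 or 4 (adjusted p = 0.0779, 0.0874 and 0.0578 by edgeR) or without control 1, 2 or 3 (0.06, 0.0853 and 0.0581), while it held without graft 3 or control 4. Among controls, Sdc3 was highest in controls 3 and 4, which held the most Schwann cell markers, and with both left out the fold change was 0.89 (adjusted p = 0.0341 by edgeR). Among grafts, graft 3 held the highest Schwann cell sum (471 CPM) and the lowest Sdc3. Graft 2 held the lowest sum (140 CPM) and the highest Sdc3. The part of Schwann cells in the level of Sdc3 was not tested.

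Sdc4, which joins integrins in focal adhesions, stood at 53.2, 83.2, 50.9 and 65.4 CPM in grafts 1 to 4, against 38.9, 39.2, 51.7 and 60.3 CPM in controls 1 to 4. Grafts 1 and 3 lay below control 4, and graft 3 also below control 3. On the log2 scale the change was 0.41 ± 0.20 (SE; adjusted p = 0.124 by edgeR), with a 95% interval from -0.03 to 0.86. Scaled by library totals alone it was 0.63 and passed (adjusted p = 0.0235 by edgeR), on a scale where the median of all genes was 0.23 in place of 0.01.

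Sdc1, the syndecan of epithelia and plasma cells, varied most among controls. It stood at 108, 172, 72.3 and 97.2 CPM in grafts 1 to 4, against 290.0, 183, 123 and 125 CPM in controls 1 to 4. All grafts but graft 2 lay below all controls. Its log2 fold change was -0.68 ± 0.33 (SE; adjusted p = 0.122 by edgeR), with a 95% interval from -1.42 to 0.05. Sdc1 passed the threshold without graft 2, at -0.96 (adjusted p = 0.0426 by edgeR), and with controls 3 and 4 left out, at -1.07 (adjusted p = 0.0466 by edgeR). Plasma cell markers were not lower in grafts: 2 of 4 tested rose, and the sum of 7 was 174 to 214 CPM in grafts against 133 to 150 CPM in controls. Most of that sum was Xbp1, at 115 to 125 CPM in grafts and 106 to 125 CPM in controls. The 2 plasma cell markers that rose were Jchain, at 30.8 CPM in grafts against 3.09 CPM in controls, and Prdm1, at 21.3 against 5.93 CPM. Of 10 mesothelial and epithelial markers 5 were tested, of which 2 rose and 3 did not pass, and the sum of the 10 was 58.5 to 89.1 CPM in grafts against 2.55, 7.57, 33.5 and 26.5 CPM in controls 1 to 4. The 2 of this list that rose, Msln and Wt1, are mesothelial markers. Msln stood at 43.7 to 71.5 CPM and Wt1 at 2.97 to 3.98 CPM in grafts, and neither had a count in controls. Each thus passed the filter through its grafts alone and could only rise. Upk3b, also a mesothelial marker, had counts in graft 2 alone, at 0.0751 CPM. Krt8 was at 1.58 to 2.91 CPM in grafts and 0.747 to 4.27 CPM in controls, Krt14 had no counts in any library and Krt5 none in grafts. Krt18 and Cdh1 did not pass (log2 fold change -0.74 and -0.25, adjusted p = 0.634 and 0.818 by edgeR). Krt19 stood at 0.526 to 0.728 CPM in grafts and 0.15 to 0.92 CPM in controls. Control 1, with the most Sdc1, also had the highest fibroblast marker sum (77100 CPM), of which Col1a1 alone made up 69700 CPM. Its endothelial marker sum was the highest as well (4960 CPM), of which Vwf made up 3580 CPM. The smooth muscle sum was highest in control 2 (24200 CPM). The part of these markers in the level of Sdc1 was not tested.

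**Figure D3:**
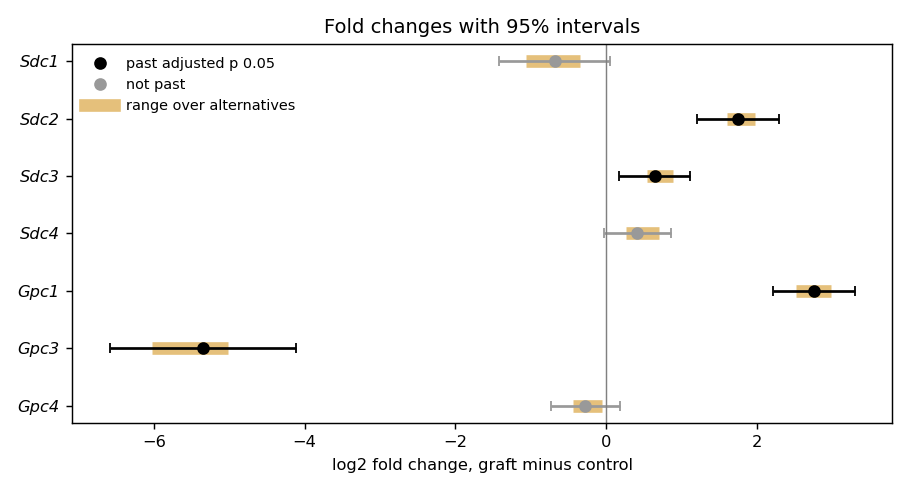
Log2 fold change (graft minus control) of the 7 genes with 95% intervals, black where the adjusted p was under 0.05 and grey where not, over the range from 17 alternative fits (tan). Gpc3 at -5.35 and Gpc1 at 2.76 were the largest changes, and the intervals of Sdc1, Sdc4 and Gpc4 include 0.

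Levels were also summed over each family, with no test of the sums. The 3 glypicans together stood at 356, 193, 213 and 228 CPM in grafts 1 to 4, a mean of 247 ± 74.1 CPM, against 300.0 ± 24.3 CPM in controls (SD, n = 4 each). Grafts 2 to 4 lay below all controls and graft 1 above them. The 4 syndecans summed to 248 to 478 CPM in grafts and 281 to 431 CPM in controls, and the groups overlapped. Within glypican counts, Gpc1 made up 76.3% to 80.4% in grafts against 7.93% to 11.6% in controls. Gpc3 made up 0.585% to 5.38% in grafts against 62.0% to 76.9% in controls, and Gpc4 16.4% to 23.1% in grafts against 14.9% to 26.5% in controls. The leading glypican by counts was thus Gpc1 in all 4 grafts and Gpc3 in all 4 controls. Within syndecan counts, Sdc1 made up 27.4% to 36.1% in grafts against 40.2% to 67.3% in controls, Sdc2 11.1% to 16.1% in grafts against 3.92% to 4.78% in controls, and Sdc3 35.5% to 42.0% in grafts against 18.9% to 35.7% in controls. Sdc4 made up 14.3% to 20.5% in grafts against 9.03% to 19.4% in controls. These are shares of counts, which weigh long transcripts more, so the contrast of a gene's share between groups is informative and the ranking of genes is not per molecule.

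**Figure D4:**
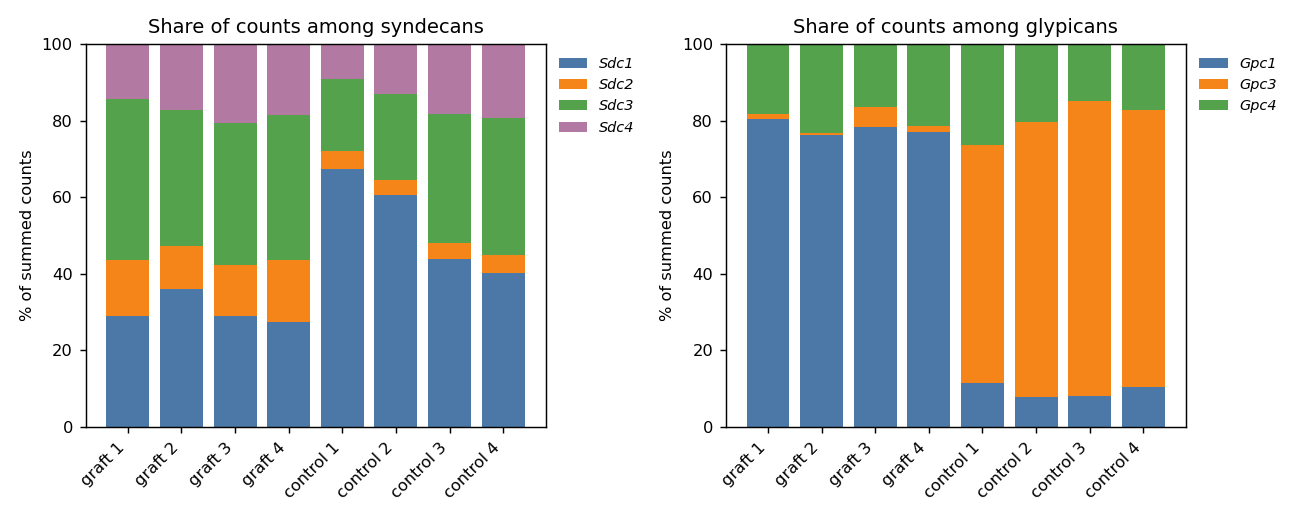
Share of each gene in the summed syndecan counts (left) and glypican counts (right), in percent, per library, with grafts on the left of each panel and controls on the right. Gpc1 held 76.3% to 80.4% of glypican counts in grafts, and Gpc3 62.0% to 76.9% in controls.

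Genes that build the chains were also measured. Counts of calls in this and the other gene lists stand beside the share of all genes, of which 21.0% rose and 21.3% fell. The lists are small and had no set test, so their counts are descriptions only. Of 7 genes of the linker sugars that join the chain to its core protein, 4 rose, 1 fell and 2 did not pass. Their median log2 fold change was 0.70, where that of all genes was 0.01. Xylt2, a xylosyltransferase that starts the linker, stood at 55.9 ± 4.15 CPM in grafts and 28.0 ± 3.87 CPM in controls (SD, n = 4 each; log2 fold change 1.00 ± 0.13, adjusted p = 0.00034 by edgeR). B4galt7, which adds the next sugar, rose by 0.98 ± 0.22 (adjusted p = 0.00557 by edgeR). Xylt1 rose from a low level, to 1.66 CPM in grafts against 0.372 CPM in controls, and Pxylp1, the xylose phosphatase, fell by 0.80 on the log2 scale. Of 5 chain polymerase genes 3 rose: Extl3, which starts the heparan chain, by 0.76 ± 0.11 (adjusted p = 0.000473 by edgeR), and Ext2 and Ext1, which extend it, by 0.65 ± 0.10 and 0.78 ± 0.17 (adjusted p = 0.00104 and 0.00585 by edgeR). The median of the 5 was 0.65. Extl1, at 1.5 CPM in grafts and 3.95 CPM in controls, fell at adjusted p = 0.0469 by edgeR, a call lost in 12 of 17 alternative fits (highest adjusted p = 0.167). Among them were the fits without any 1 of the grafts or without control 1, 3 or 4.

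Sulfation genes moved in both directions. Of 16 looked up, 15 had a row and 9 passed the filter, of which 3 rose, 3 fell and 3 did not pass. The median was 0.11. Hs3st1, an enzyme that makes the antithrombin-binding site of heparan sulfate, stood at 7.65, 11, 12.2 and 9.12 CPM in grafts 1 to 4, against 37.5, 51.4, 44.3 and 50.4 CPM in controls 1 to 4. Every graft was below every control (log2 fold change -2.20 ± 0.18, SE; adjusted p = 3.73e-05 by edgeR). Hs6st1 and Hs6st2, which add 6-O-sulfate, rose: Hs6st1 stood at 69.8 ± 11.4 CPM in grafts and 27.1 ± 3.23 CPM in controls, and Hs6st2 at 19.5 ± 5.59 CPM in grafts and 3.62 ± 2.04 CPM in controls (SD, n = 4 each). Their log2 fold changes were 1.37 ± 0.15 and 2.42 ± 0.40 (adjusted p = 0.000124 and 0.00127 by edgeR). The third enzyme of that kind, Hs6st3, fell to 0.0948 CPM in grafts, against 5.70 CPM in controls (adjusted p = 0.000264 by edgeR), and its level was highest in control 1 (11.6 CPM). Glce, the epimerase, fell by 0.78 on the log2 scale (adjusted p = 0.0121 by edgeR, and 0.111 with controls 3 and 4 left out), and Ndst3 rose by 1.93 at under 3 CPM. More genes passed the filter without control 1, 2, 3 or 4: in each of these fits 5 of 11 rose, with medians of 1.26, 0.37, 0.53 and 0.55. DESeq2 called 6 of 14 as higher and 3 as lower, at a median of 1.01, and with no filter on low counts 7 of 14 rose and 3 fell, at a median of 1.02. Among the genes under the filter were relatives of Hs3st1, named after their values were seen. Hs3st3a1 stood at 0.751 to 2.64 CPM, Hs3st5 at 0.728 to 1.22 CPM and Hs3st6 at 0.0751 to 0.303 CPM in grafts, and none had a count in controls. Hs3st3b1 stood at 0.667 to 2.25 CPM in grafts and 0 to 0.599 CPM in controls, and Hs3st2 at 0 to 0.376 CPM in grafts and 0 to 0.824 CPM in controls. A gene with no counts in controls enters a fit through its grafts alone, so it could only rise there. The counts and medians of the wider fits are thus no further support for a rise.

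Outside the cell, Sulf1, which removes 6-O-sulfate from finished chains, fell to 176, 163, 174 and 187 CPM in grafts 1 to 4, against 454, 509, 389 and 385 CPM in controls 1 to 4. The groups were far apart and the grafts close together, at a log2 fold change of -1.31 ± 0.13 (SE; adjusted p = 7.19e-05 by edgeR). Hpse2, which blocks heparanase, fell to 0.33 CPM in grafts, against 2.82 CPM in controls. Sulf2 and Hpse, the heparanase itself, completed this list of 4, did not pass and are named after their values were seen, at log2 fold changes of 0.26 and 0.25. Of 7 genes that supply sugar and sulfate, Ugdh and Slc35b2 rose, Papss2 fell and 4 did not pass (median 0.22). Papss2, an enzyme that makes the sulfate donor, fell by 1.30 ± 0.19 on the log2 scale (adjusted p = 0.000669 by edgeR). Papss1, another enzyme of that donor, is named after its values were seen. It stood at 60.3 CPM in grafts and 65.8 CPM in controls and did not pass (log2 fold change -0.12, adjusted p = 0.528 by edgeR). Slc35b2, which carries that donor into the Golgi, rose by 0.94, a call lost without graft 1, 2 or 4 or control 2 or 4 (edgeR adjusted p up to 0.0672). With controls 3 and 4 left out neither rise passed (by edgeR, adjusted p = 0.0541 for Ugdh and 0.105 for Slc35b2).

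**Figure D5:**
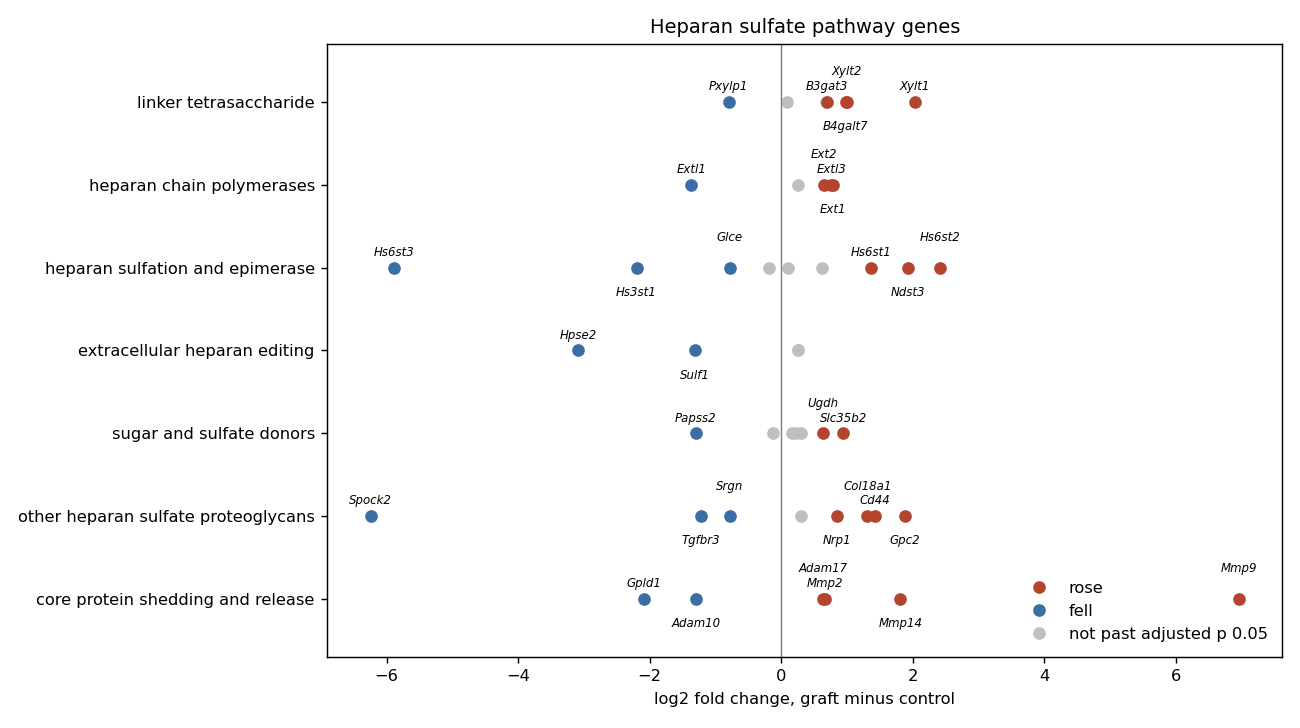
Log2 fold change (graft minus control) of tested genes in 7 lists of the heparan sulfate pathway, each point 1 gene, red where it rose, blue where it fell and grey where the adjusted p was not under 0.05. The 3 polymerase genes that rose lie at 0.65 to 0.78, while Hs3st1 at -2.20, Sulf1 at -1.31 and Spock2 at -6.24 lie on the other side of 0.

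Core proteins are also cut from the surface. Of 8 genes known to shed syndecans or release glypicans, 6 were tested, of which 4 rose and 2 fell (median 0.65). By the same rule 42.3% of all genes were called. The rises numbered 3 by limma voom and 5 of 7 by DESeq2. Mmp2, 1 of the 4 and named after its values were seen, rose by 0.66 (adjusted p = 0.0356 by edgeR). It was called in 10 of 17 alternative fits, and with controls 3 and 4 left out its adjusted p was 0.258 by edgeR. Mmp14, a membrane metalloproteinase that cleaves Sdc1, stood at 1150 ± 348 CPM in grafts and 328 ± 71.1 CPM in controls (SD, n = 4 each; log2 fold change 1.81 ± 0.26, adjusted p = 0.000539 by edgeR). Mmp9 rose to 23.5, 182, 10.5 and 38.8 CPM in grafts 1 to 4, against 0.187 to 0.974 CPM in controls. Every graft was above every control, graft 2 far above the other grafts (log2 fold change 6.96 ± 1.08, SE; adjusted p = 0.000837 by edgeR and 0.0505 by limma voom), and without graft 2 the log2 fold change was 5.59. Adam17 rose by 0.64 ± 0.14 and Adam10 fell by 1.29 on the log2 scale (adjusted p = 0.00545 and 0.00163 by edgeR). Gpld1, a lipase that cuts the anchor of glypicans, fell to 1.36 CPM in grafts, against 5.96 CPM in controls. Notum, the other releasing enzyme, had no counts in any library.

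Of 10 genes whose proteins bind syndecan tails, Src rose by 1.08 ± 0.17 (adjusted p = 0.000942 by edgeR), Prkca, the protein kinase C form held by Sdc4, fell by 0.99 on the log2 scale (adjusted p = 0.00109 by edgeR), and 8 did not pass. The median was 0.26, and the rises numbered 3 without control 1, 5 with library totals alone and 2 with DESeq2, limma voom or upper-quartile factors.

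Of 11 other genes whose products carry or can carry heparan sulfate, 8 were tested, of which 4 rose, 3 fell and 1 did not pass (median 0.57). Spock2, a secreted proteoglycan of the testican family, fell steeply. It stood at 2.06, 2.33, 2.00 and 3.92 CPM in grafts 1 to 4, against 181, 259, 159 and 187 CPM in controls 1 to 4, with -6.24 ± 0.28 as the log2 fold change (SE; adjusted p = 8.96e-06 by edgeR). Tgfbr3, the betaglycan co-receptor, fell by 1.22 ± 0.17 and Srgn, the proteoglycan of blood cell granules, by 0.78 ± 0.23 on the log2 scale (adjusted p = 0.000553 and 0.0207 by edgeR). The call of Srgn was lost without graft 3 or control 2 or 3 (adjusted p = 0.0603, 0.0605 and 0.053 by edgeR), with controls 3 and 4 left out (0.119) and with library totals alone (0.0727). Col18a1, the basement membrane collagen that carries heparan sulfate, stood at 1120 ± 190 CPM in grafts and 452 ± 29.7 CPM in controls (SD, n = 4 each; log2 fold change 1.31 ± 0.15, adjusted p = 0.000189 by edgeR). Cd44, the hyaluronan receptor, and Nrp1, a co-receptor for vascular endothelial growth factor, rose by 1.43 ± 0.17 and 0.85 ± 0.14 (adjusted p = 0.000193 and 0.00135 by edgeR).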

How the data were processed

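RNA of 4 vein grafts and 4 control jugular veins was sequenced on Illumina libraries, and the molecule is labelled total RNA. HISAT2 2.0.4 and the assembly Rnor 6.0 are named in the submitters' processing notes. The authors deposited whole-number read counts per gene. No source used here names the counter, the annotation or the use of strand, so a gene's reads may include those of an antisense partner.

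Groups came from sample titles. These number both groups 1 to 4, but the source names number the grafts otherwise, so the test was unpaired. P-values measure the spread between these samples. Within groups, all pairs of libraries differed beyond sampling noise. The fit used edgeR 4.0.16 in R 4.3.3: filterByExpr (minimum count 10) kept 15464 genes with 99.08% to 99.86% of counts, TMM factors ran from 1.03 to 1.19 in grafts and 0.9 to 0.96 in controls, and glmQLFTest p-values were adjusted by Benjamini-Hochberg over all genes. The SE is the fold change's size divided by the root of F, and 95% intervals use its t quantile. Limma 3.58.1 (voom), DESeq2 1.42.0, other scalings and filters, thinned counts and left-out libraries were alternatives. The procedure was tested on simulated data. Genes of pathway lists were named by smallest p, up to 3 per direction among those past the threshold. Some passed the low-count filter through 1 group alone, among them Xylt1 and Chst13 through grafts and Hs6st3 and Hpse2 through controls. The filter thus favoured the direction in which they were called, and they add no support to the counts of their lists. Members and lists were chosen with earlier results of these data known. Lists were matched by current or older RefSeq symbols. Promoters are RefSeq's, build GRCr8.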

Additional observations from a re-analysis of the deposited data

How the results depend on the processing

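Over 17 alternative fits and an exact permutation test, no member changed direction. Sdc2, Gpc1 and Gpc3 kept their calls in all 17 fits. Their exact two-sided permutation p was 0.0286 each, the smallest that 4 against 4 libraries allow. That p is not adjusted over genes, and every gene whose groups did not overlap, 40.6% of all genes, reaches it. It is thus no further support for these 3 calls. Of 126 values of single genes, 115 kept their side of the threshold and 3 gained a call, with the permutation p taken unadjusted. The other 8 lost the call, all of Sdc3 (exact permutation p = 0.0857 and 7 fits, edgeR adjusted p up to 0.0874). The number of the 7 genes that fell ran from 1 to 2 with single libraries left out and was 2 with controls 3 and 4 left out, Sdc1 being the gene added. With library totals in place of TMM factors, 2164 of all genes fell and 4558 rose (67.8% of calls), where TMM gave 3288 and 3250 (49.7% of calls). The cause was not tested. With a replicate block on the title numbers, 3042 genes rose and 2860 fell, and neither Sdc3 (adjusted p = 0.0736 by edgeR) nor Col4a1 and Col4a2 (0.0527 and 0.0679) were called, and the genes of syndecan tail partners that rose and fell numbered 2 each. Same-numbered libraries correlated by -0.07, 0.18, 0.07 and 0.05 in their deviations from group means, so the numbers share no clear pairing. Shares within families moved by less than the larger of the groups' SDs. With single libraries left out, graft minus control ran from 67.6 to 69.1 percentage points for Gpc1, from -71.4 to -66.4 for Gpc3, from -26.8 to -17.8 for Sdc1 and from 0.718 to 4.18 for Sdc4. Depth limited statements on genes under about 0.56 CPM, the level of 3 counts in the smallest library.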

Other observations

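The linker made by Xylt2 and its partners also carries chondroitin and dermatan sulfate. Of 15 tested genes of that pathway, 6 rose, 4 fell and 5 did not pass. Their median log2 fold change was -0.09, which was 0.13 with library totals alone. Chsy1, a chondroitin polymerase, stood at 140.0 ± 31 CPM in grafts and 47.5 ± 4.26 CPM in controls (SD, n = 4 each; log2 fold change 1.56 ± 0.17, adjusted p = 0.000121 by edgeR). Chst11, which adds 4-O-sulfate, rose by 1.34 ± 0.14 (adjusted p = 0.000107 by edgeR), and Chst13, of the same activity, rose to 1.5 to 7.04 CPM in grafts, against 0.502 CPM in control 3 and no counts in the other controls, and its log2 fold change ran from 3.77 to 8.47 over the alternatives. Chst3, which adds 6-O-sulfate, and Ust, which sulfates uronic acid, fell by 0.92 ± 0.13 and 0.78 ± 0.13 on the log2 scale (adjusted p = 0.000523 and 0.00113 by edgeR). Csgalnact1, which starts the chondroitin chain, fell by 0.82 on the log2 scale (adjusted p = 0.0178 by edgeR), a call lost without control 2 (adjusted p = 0.0512 by edgeR), in thinned counts (0.0655) and with library totals alone (0.0808). The falls numbered 2 without control 2 or with library totals alone, and the rises 3 with controls 3 and 4 left out.

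Perlecan binds laminins, nidogens and collagen IV in basement membranes. Of 11 such genes, 2 rose, 3 fell and 6 did not pass. The median was -0.21, which was 0.02 with library totals alone. Lama2 stood at 258 ± 40.7 CPM in grafts and 682 ± 130 CPM in controls, and Lamb2 at 414 ± 64.9 CPM in grafts and 984 ± 250 CPM in controls (SD, n = 4 each). The falls of these laminin chains were -1.40 and -1.25 as log2 fold changes (adjusted p = 0.000323 and 0.00117 by edgeR). Dag1, the dystroglycan receptor, was at -0.52 (adjusted p = 0.0282 by edgeR), a call lost without graft 2 or 3 or control 2, 3 or 4 (up to 0.0858) with controls 3 and 4 left out (0.205) and with library totals alone (0.136). Col4a1 and Col4a2 were at 0.70 and 0.53 (adjusted p = 0.026 and 0.0427 by edgeR). Neither passed without graft 1, 2 or 4 or control 2 (edgeR adjusted p up to 0.0712 and 0.111), and Col4a2 also missed without control 1 or 3.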
